A study of Mus musculus with 8 samples.

Results

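The replication-dependent histone genes encode the linker histone H1 and the core histones H2A, H2B, H3 and H4 that package newly made DNA. They were chosen by symbol, as genes named H2ac, H2bc, H3c or H4c with a number, or H1f1 to H1f5, with values in all 4 TAM-WT libraries and in TAM-KO replicates 2 to 4. Of 21051 genes listed, 62 had such a symbol and 60 had these values. They were 5 H1, 16 H2A, 15 H2B, 12 H3 and 12 H4 genes, of which 50 lie on chromosome 13 and 10 on chromosome 3. The other 2, H2ac1 and H2bc1, were listed without values.

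Tumor-associated macrophages (TAMs) were sorted as CD45+F4/80+ cells from s.c. B16 melanomas on day 14, and RNA of 4 WT (TAM-WT) and 4 Colec11-/- (TAM-KO) mice was sequenced, with 1 library for each replicate number of the labels. Colec11 encodes collectin-11, a soluble lectin of the complement system, and B16 is a pigmented melanoma line of C57BL/6 origin. All mice were C57BL/6. The Colec11-/- mice are homozygous knockouts, not restricted to a cell type, and had been back-crossed to C57BL/6, the WT mice were littermates, and both groups received the same tumor cells. The study used male mice of 8 to 10 weeks unless it stated otherwise. The labels do not say whether mice were pooled, so the p-values measure the spread between these libraries.

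Most cells carry many nearly identical copies of each core histone gene, grouped in clusters in which an H2A gene and an H2B gene often share a promoter region and are read in opposite directions. Transcription of these genes rises in S phase, when DNA is copied. Their mRNAs usually end in a conserved stem-loop bound by SLBP and carry no poly(A) tail, while some copies also give longer, polyadenylated transcripts. How RNA was selected before sequencing is not given in the sources used here, so the levels below are those of the histone transcripts that the libraries captured.

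H2ac7, H2ac23 and H2ac24 are shown first because they were the members higher in TAM-KO and because their reads are hard to tell apart. Other H2A genes were also close, as the coding sequence of H2ac11 differed from that of H2ac7 at 2 bases and that of H2ac8 at 3. In the RefSeq genes of GRCm38.p6, H2ac7 (NCBI gene 319165) lies at chr13:23574381-23574915 on the plus strand, H2ac23 at chr13:21810367-21810918 on the plus strand and H2ac24 at chr13:21833024-21833475 on the minus strand. H2ac23 and H2ac24 lie 22.1 kb apart, and H2ac7 lies 1.74 Mb from H2ac24. In the GENCODE M21 transcripts, also on GRCm38, each has a coding sequence of 393 bases. Those of H2ac23 and H2ac24 are identical. H2ac7 differs from both by A18G, G150C and G387A, where the base of H2ac7 comes first and positions are counted from 1 at the A of the start codon. The coding stretches that hold these differences are printed from base 8 to 28, from 140 to 160 and from 377 to 393, with the differing base in capitals.
H2ac7, bases 8 to 28: gacgcggcaaAcagggtggca
H2ac23 and H2ac24, bases 8 to 28: gacgcggcaaGcagggtggca
H2ac7, bases 140 to 160: gcgccccggtGtacctggcgg
H2ac23 and H2ac24, bases 140 to 160: gcgccccggtCtacctggcgg
H2ac7, bases 377 to 393: aggccaagggGaaataa
H2ac23 and H2ac24, bases 377 to 393: aggccaagggAaaataa

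Of the stretches of 100 bases in the H2ac7 transcript, 36.4% occurred in the transcript of no other gene, against 7.35% for H2ac23 and 7.83% for H2ac24. H2ac23 shared 92.6% of its stretches with H2ac24 and 44.4% with H2ac7. Of its stretches of 50 bases, H2ac7 had 32.9% to itself, H2ac23 6.5% and H2ac24 6.93%. At that length H2ac23 and H2ac24 shared 62.4% and 62.1% of theirs with H2ac7. H2ac7 can therefore be told apart by a larger part of its transcript than the other two. Reads that fit several copies had been divided among them as fractions by RSEM. The H2A genes summed to within 0.01 of a whole number of counts in each of 7 libraries, although 9 or 10 of the H2A genes in each library had counts that were not whole. The division of H2A reads thus stayed among the 16 H2A genes to within that tolerance, and the H2A sum does not depend on it.

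The end of the mRNA is shown for the same genes and for H1f2, the linker histone gene that was lower in TAM-KO, because the stem-loop marks the replication-dependent form. The 16 letters of the stem-loop are in capitals, with stem letters first, the loop in the middle and the paired stem letters last.
H2ac7: caaaGGCTCTTTTCAGAGCCatcc
H2ac23: aaaaGGCTCTTTTCAGAGCCatcc
H1f2: aaaaGGCTCTTTTCAGAGCCacca

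These 3 genes and H2ac24 had the same 16 letters. With 1 transcript model taken per gene, the first by identifier, 44 of 60 members had a model that ran at least 50 bases past the stop codon, and 42 of these held the stem-loop, searched as 16 letters that begin with GG, end with CC and have 6 letters at each end that pair fully. The models without it were those of H2bc4, which ran 742 bases past the stop codon, and of H2bc21, which ran 2192 bases past it. The H1f2 model ran 840 bases past its stem-loop, and those of H2ac7, H2ac23 and H2ac24 ran 42, 31 and 3 bases past it.

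Promoter windows are shown for H2ac7 and H2ac23 because these genes were higher in the same libraries. Each runs from 250 bases before to 50 bases after the RefSeq start (GRCm38.p6, plus strand, chr13:23574131-23574430 for H2ac7 and chr13:21810117-21810416 for H2ac23), with matches to CCAAT and TATAA on either strand in capitals.
H2ac7: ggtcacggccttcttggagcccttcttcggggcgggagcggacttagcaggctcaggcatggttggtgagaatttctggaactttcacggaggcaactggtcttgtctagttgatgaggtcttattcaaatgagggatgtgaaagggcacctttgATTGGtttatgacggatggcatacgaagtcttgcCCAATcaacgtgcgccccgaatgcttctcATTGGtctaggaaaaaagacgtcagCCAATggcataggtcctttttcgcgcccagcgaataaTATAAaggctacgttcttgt
H2ac23: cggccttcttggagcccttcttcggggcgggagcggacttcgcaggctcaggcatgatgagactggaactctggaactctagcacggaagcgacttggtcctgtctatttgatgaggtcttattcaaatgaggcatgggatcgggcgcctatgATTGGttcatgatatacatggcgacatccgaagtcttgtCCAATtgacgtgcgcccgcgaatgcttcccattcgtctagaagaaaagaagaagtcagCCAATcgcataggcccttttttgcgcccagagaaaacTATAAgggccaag

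The H2ac7 window held 4 matches to CCAAT, the H2ac23 window 3, and each held 1 match to TATAA. The window of H2ac24 also held 3 and 1 matches and shared an unbroken run of 200 bases with that of H2ac23, whereas the longest run that H2ac7 shared with H2ac23 was 40 bases. CCAAT was found in 85.7% of the 56 windows of 55 members and in 37.4% of all 32851 windows, and TATAA in 76.8% and 24.9%. H2bc7, an H2B gene read in the opposite direction, starts 173 bases from the start of H2ac7, and H2bc23 lies 167 bases from H2ac23 in the same arrangement.

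The libraries other than TAM-KO replicate 1 held from 16225362 to 17280267 reads on genes. The table of TAM-KO replicate 1 lacks an unbroken run of 5311 genes, so 56 members had a value in it and H4c17, H1f3, H3c14 and H2ac18 did not. Colec11 itself was hardly detected in either group, so the genotype was not checked by it. Macrophage markers were high, with a summed level of 8 markers, led by C1qa, C1qb and Cd68, from 5557 to 6899 FPKM in TAM-WT and from 6018 to 6640 FPKM in TAM-KO.

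In the deposited counts, H2ac7 was not the only member that changed, and the members that rose with it were not its neighbors. How far reads of H2ac7 were counted to H2ac23 and H2ac24 was not tested. H2ac7, H2ac23 and H2ac24 were higher in TAM-KO, by 123-fold, 8.84-fold and 3.95-fold, while H1f2 fell to 0.512 and H2bc4 to 0.683 of the TAM-WT level. Of the 60 members, 12 passed edgeR's filter on low counts and 48 did not. Of the 12, 3 rose and 2 fell at an adjusted p of at most 0.05 in edgeR's quasi-likelihood test, where 4.58% of all 12412 genes tested rose and 5.24% fell (9.81% in either direction). In the same 5 genes the libraries of the groups did not overlap in CPM (counts scaled to library size), which held for 19.3% of all genes tested. These counts describe the members only, as the filter itself selects: H2ac7 had at least 10 counts in 0 TAM-WT and 4 TAM-KO libraries and passed it through TAM-KO. In these bulk samples, a change in the number of cells of a type and a change in RNA per cell cannot be told apart.

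**Figure D1:**
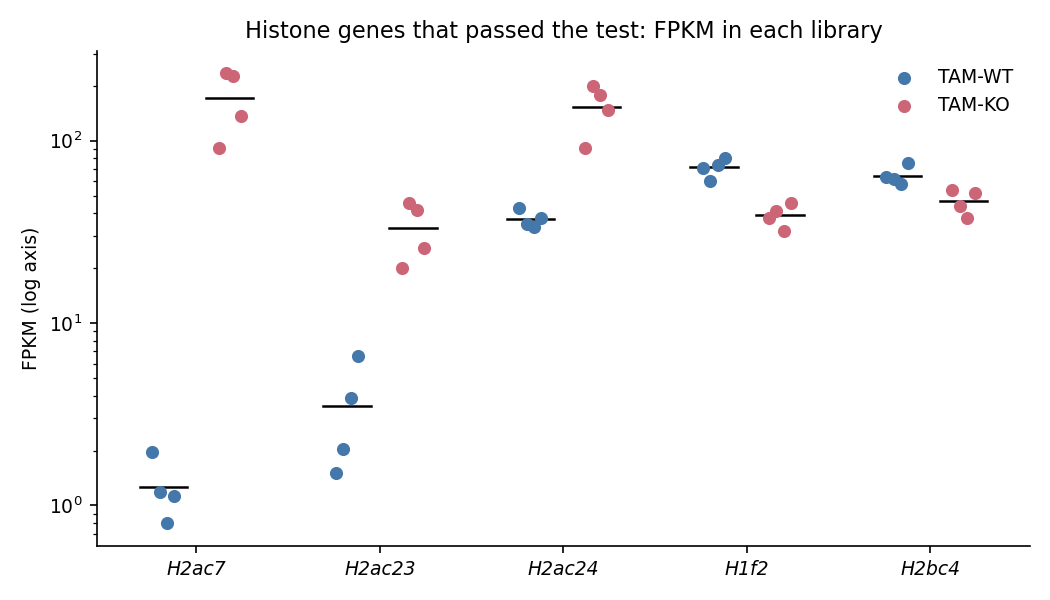
FPKM (log axis) of the 5 histone genes that passed the test in each of 4 TAM-WT (blue) and 4 TAM-KO (red) libraries, with black lines at the group means. H2ac7 lay between 0.80 and 1.97 FPKM in TAM-WT and between 91.3 and 234 FPKM in TAM-KO, and the groups did not overlap for any of the 5 genes.

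H2ac7 encodes an H2A protein of the canonical kind. Values of a group are given in the order of its replicates, 1 to 4 or, where TAM-KO replicate 1 has none, 2 to 4 of TAM-KO. The expected counts of H2ac7 were 8.92, 5.60, 3.66 and 5.24 in TAM-WT and 430.1, 1065, 1055 and 639.6 in TAM-KO. In FPKM, which allows for transcript length, it was at 1.97, 1.18, 0.80 and 1.13 in TAM-WT and 91.3, 234, 227 and 136 in TAM-KO. Every TAM-KO library was far above every TAM-WT library, and TAM-KO replicate 1 was the lowest of its group. The log2 fold change was 6.94 ± 0.43 (SE, adjusted p = 2.8e-04, edgeR's quasi-likelihood test with Benjamini-Hochberg adjustment). Among 12412 genes tested, H2ac7 ranked 1 by fold change and 1 by p.

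H2ac23 encodes the same kind of H2A protein. It was at 1.5, 2.05, 3.90 and 6.61 FPKM in TAM-WT and at 19.98, 45.8, 41.7 and 25.7 FPKM in TAM-KO. All TAM-KO libraries lay above all TAM-WT libraries, with TAM-WT replicate 4 the closest. The log2 fold change was 3.14 ± 0.43 (SE, adjusted p = 0.0101, edgeR). H2ac24 was at 42.8, 35.1, 33.6 and 37.6 FPKM in TAM-WT and at 91.15, 199.6, 178 and 147 FPKM in TAM-KO. The groups were again apart, and replicate 1 was again the lowest TAM-KO library. The log2 fold change of H2ac24 was 1.98 ± 0.22 (SE, adjusted p = 0.0045, edgeR).

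The proportions among the 3 genes also differed between groups. H2ac7 had 5.94%, 4.23%, 2.81% and 3.29% of their summed counts in TAM-WT and 51.8%, 55.3%, 57.3% and 51.0% in TAM-KO. It was thus the least or second least abundant of the 3 in TAM-WT and the most abundant in TAM-KO. For each count of H2ac24 there was 0.0539, 0.0883, 0.177 and 0.269 of a count of H2ac23 in TAM-WT and 0.334, 0.345, 0.355 and 0.264 in TAM-KO. The ratio of H2ac23 to H2ac24 overlapped between the groups, as TAM-WT replicate 4 lay above TAM-KO replicate 4. Because H2ac23 and H2ac24 have identical coding sequences and few bases of their own, how much each of them rose is uncertain. How reads on the stretches shared with H2ac7 were divided was not tested. The share of H2ac7 reads in the counts of H2ac23 and H2ac24 is therefore not known.

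The summed counts of all 16 H2A genes do not carry that uncertainty. They were 332, 279, 298 and 419 in TAM-WT and 2075, 1975 and 1444 in TAM-KO replicates 2 to 4. In CPM the sum was 20.2 ± 4.04 (SD, n = 4) in TAM-WT and 105 ± 18.2 (SD, n = 3) in TAM-KO, 5.21-fold higher. TAM-KO replicate 1, the lowest of its group for H2ac7, H2ac23 and H2ac24, is not in this sum. The 13 H2A genes other than H2ac7, H2ac23 and H2ac24 summed to 10.7, 8.43, 10.9 and 15.96 CPM in TAM-WT and to 8.49, 7.69 and 11.1 CPM in TAM-KO. The 2 groups overlapped in that remainder.

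Most other H2A genes were near the limit of detection. H2ac18, which lies on chromosome 3, was at 28.7, 19.7, 25.1 and 39.7 FPKM in TAM-WT and at 21.3, 19.9 and 29.7 FPKM in TAM-KO replicates 2 to 4. The groups overlapped, and the log2 fold change was -0.34 ± 0.26 (SE, adjusted p = 0.426, edgeR, on 7 libraries). No stretch of 100 bases of H2ac18 was its own (0%), and the same was true of H2ac19, at 0 to 23.2 counts, so the division of counts to these 2 genes is uncertain. The other 10 H2A genes that were not tested had at most 12.4 counts in any library.

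Among linker histones, H1f2, which encodes a somatic H1 protein, fell. It was at 70.9, 60.4, 74.0 and 80.1 FPKM in TAM-WT and at 37.6, 40.9, 31.9 and 45.7 FPKM in TAM-KO. Every TAM-KO library lay below every TAM-WT library. Its counts were 551, 484, 579 and 636 in TAM-WT and 301, 313, 250 and 363 in TAM-KO, and the log2 fold change was -0.97 ± 0.14 (SE, adjusted p = 0.0108, edgeR). Of the H1f2 stretches of 100 bases, 94.9% were its own, so little of its count could have been shared. The next H1 gene by level, H1f3, had 5, 7, 8 and 10 counts in TAM-WT and 3, 7 and 4 in TAM-KO replicates 2 to 4, and H1f1, H1f4 and H1f5 had at most 8 counts in any library.

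Among H2B genes, H2bc4 was the most abundant and fell less than H1f2. It was at 62.9, 61.8, 57.65 and 75.1 FPKM in TAM-WT and at 53.9, 43.9, 37.5 and 51.7 FPKM in TAM-KO. The groups did not overlap, although TAM-KO replicate 1 lay close to TAM-WT replicate 3. The log2 fold change was -0.55 ± 0.13 (SE, adjusted p = 0.0365, edgeR). It no longer passed when TAM-WT replicate 3 or 4 was left out (adjusted p = 0.0904 and 0.083, edgeR) or when TAM-KO replicate 2 or 3 was (adjusted p = 0.123 and 0.0959, edgeR). Of the H2bc4 stretches of 100 bases, 74.65% were its own, less than for H1f2, and its counts were not whole numbers. The summed H2B counts were up to 0.35 off a whole number (TAM-WT replicate 1), against 0.01 for H2A. Some H2B reads were thus also divided with genes outside the H2B members.

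H2bc21, on chromosome 3, had 146, 157, 112 and 138 counts in TAM-WT and 150, 116, 115 and 92 counts in TAM-KO, which overlapped. It was the member with the lowest p among those that did not pass (log2 fold change -0.31 ± 0.14 SE, adjusted p = 0.171, edgeR). H2bc8, the second H2B gene by level, was at 8.85, 4.68, 6.80 and 2.45 FPKM in TAM-WT and at 4.79, 3.95, 1.48 and 3.08 FPKM in TAM-KO, also with overlap (log2 fold change -0.81 ± 0.44 SE, adjusted p = 0.243, edgeR). The 11 H2B genes that were not tested had at most 6.95 counts in any library.

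Of the H3 genes, which encode the core histone whose tail carries many of the known chromatin marks, only H3c15 was tested. It was at 2.63, 3.43, 2.76 and 4.68 FPKM in TAM-WT and at 3.29, 1.61, 1.22 and 2.37 FPKM in TAM-KO. TAM-KO replicate 1 lay within the TAM-WT range, and the log2 fold change was -0.75 ± 0.35 (SE, adjusted p = 0.172, edgeR). The second H3 gene by level, H3c4, was at 1.49 to 2.38 FPKM in TAM-WT and 1.10 to 2.32 FPKM in TAM-KO. H3c14, named after its values were seen, had 26.3 counts in TAM-KO replicate 4 and 0 in the other 6 libraries with a value. Of the stretches of 100 bases, H3c15 had 38.4% to itself and H3c14 0%. H3c15 had whole counts in TAM-WT and TAM-KO replicate 1 but 10.3, 8.04 and 15.7 in TAM-KO replicates 2 to 4. The division of counts to H3c15 and H3c14 is therefore uncertain.

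Of the H4 genes, H4c9 was tested. It was at 12.4, 12.3, 11.2 and 19.3 FPKM in TAM-WT and at 11.7, 9.83, 8.28 and 11.9 FPKM in TAM-KO, with overlap (log2 fold change -0.47 ± 0.25 SE, adjusted p = 0.230, edgeR). H4c18, the second H4 gene by level, had 0 to 13 counts in TAM-WT and 0 to 8 in TAM-KO. The other 10 H4 genes had at most 8 counts in any library.

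**Figure D2:**
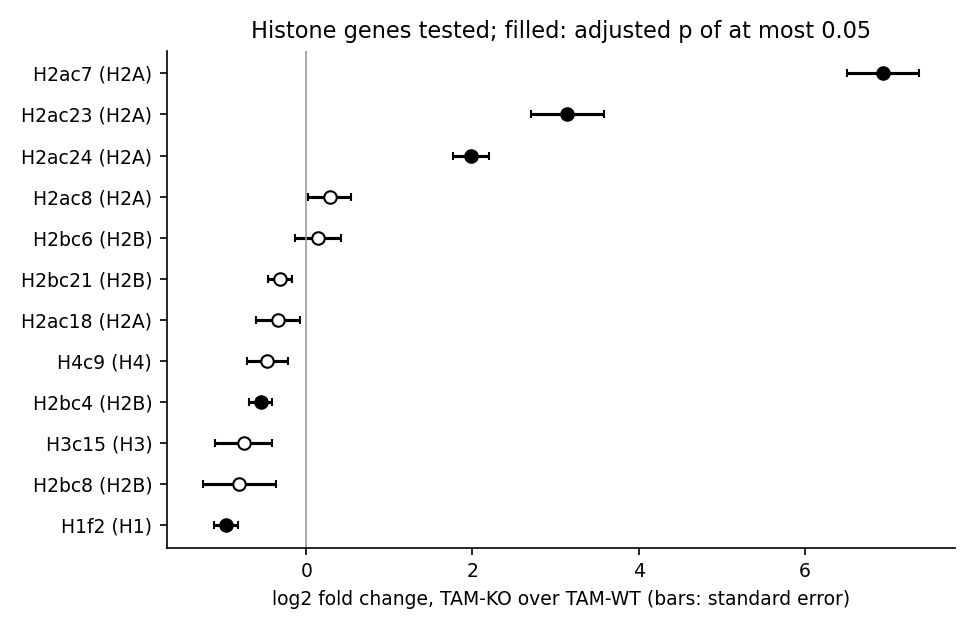
Fitted log2 fold change of TAM-KO over TAM-WT with its standard error (bars) for the 12 histone genes that passed the filter on low counts, with the family in parentheses. Filled points passed an adjusted p of at most 0.05, 3 H2A genes to the right of 0 and H1f2 and H2bc4 to the left.

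The 48 members that were not tested had at most 26.3 counts in any library, 43 of them at most 10 and 14 of the 60 at most 3. Their summed level was 7.53, 7.34, 9.70 and 8.04 CPM in TAM-WT and 7.11, 6.33 and 8.65 CPM in TAM-KO replicates 2 to 4. The groups overlapped. Differences in individual genes of this group could be missed at this depth unless they were large. In a fit without the filter, all 60 members were included and 5 passed, the same 5 genes as with the filter, where 7.42% of all genes passed. H3c1 was the next, with 7, 4, 6 and 1.06 counts in TAM-WT and 0 to 1.05 counts in TAM-KO (adjusted p = 0.0587 from edgeR, named after its values were seen).

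The genes around H2ac7 were compared next, to ask whether it changed with its cluster. Of the 15 other histone genes within 100 kb of its start, 3 were tested and 0 passed, where 9.81% of all genes tested passed. At that share, 0 of 3 is not a result about the neighbors as a set. The other 12 had at most 10 counts in any library. H2bc7, its divergent partner, had 0 counts in 7 libraries and 2 counts in TAM-KO replicate 4. H2ac8, 3.7 kb away, had 9.72, 10.6, 10.02 and 12.5 counts in TAM-WT and 18.6, 13.4, 11.9 and 13.5 in TAM-KO (log2 fold change 0.28 ± 0.26 SE, adjusted p = 0.512, edgeR). The groups overlapped for H2ac8, as they did for H2bc8, 3.0 kb away, described above.

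H3c4, 1.4 kb downstream, had 6.18, 8.84, 9.68 and 6.12 counts in TAM-WT and 5.84, 4.46, 9.55 and 5.69 in TAM-KO. H4c4, 7.2 kb away, had 3 to 6 counts in TAM-WT and 1 to 5 in TAM-KO. H2bc6, 9.3 kb away, had 12.0, 16.9, 9 and 9.04 counts in TAM-WT and 16.02, 16, 12.1 and 11.3 in TAM-KO (log2 fold change 0.14 ± 0.28 SE, adjusted p = 0.770, edgeR). The groups overlapped for all 3. The other 9 genes in this window, H1f3, H1f4, H2ac10, H2bc9, H3c6, H3c7, H3c8, H4c6 and H4c8, had at most 10 counts in any library. Of the 3 neighbors tested, 0 passed in edgeR, DESeq2 or limma, and 0 had an unadjusted p under 0.05 in edgeR.

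The 2 members that fell, H2bc4 and H1f2, lie 109.8 and 164 kb downstream of H2ac7. H2bc23, the divergent partner of H2ac23, had 6.35, 4, 4.12 and 3.11 counts in TAM-WT and 3.28, 4.09, 5.36 and 6.95 in TAM-KO, which overlapped. Its FPKM did not overlap, at 0.10 to 0.20 in TAM-WT and 0.40 to 1 in TAM-KO, so for this gene, chosen after its values were seen, count and FPKM give different pictures. Its model spans from base 21806412 to 21810199 of chromosome 13. No stretch of 100 bases of the H2bc23 transcript was its own (0%), so the division of counts to it is uncertain. Of 14 other genes on chromosome 13 within 1 Mb of the deposited start of H2ac7, 6 were tested, namely Zfp322a, Ripor2, Cmah, Hfe, Abt1 and Carmil1. Their log2 fold changes ran from -0.09 for Ripor2 to 0.21 for Zfp322a. Of these 6, 0 passed in edgeR, DESeq2 or limma, and 1, Zfp322a, had an unadjusted p under 0.05 in edgeR. With 9.81% of all genes tested passing in edgeR, 0 of 6 is not a result about the region.

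**Figure D3:**
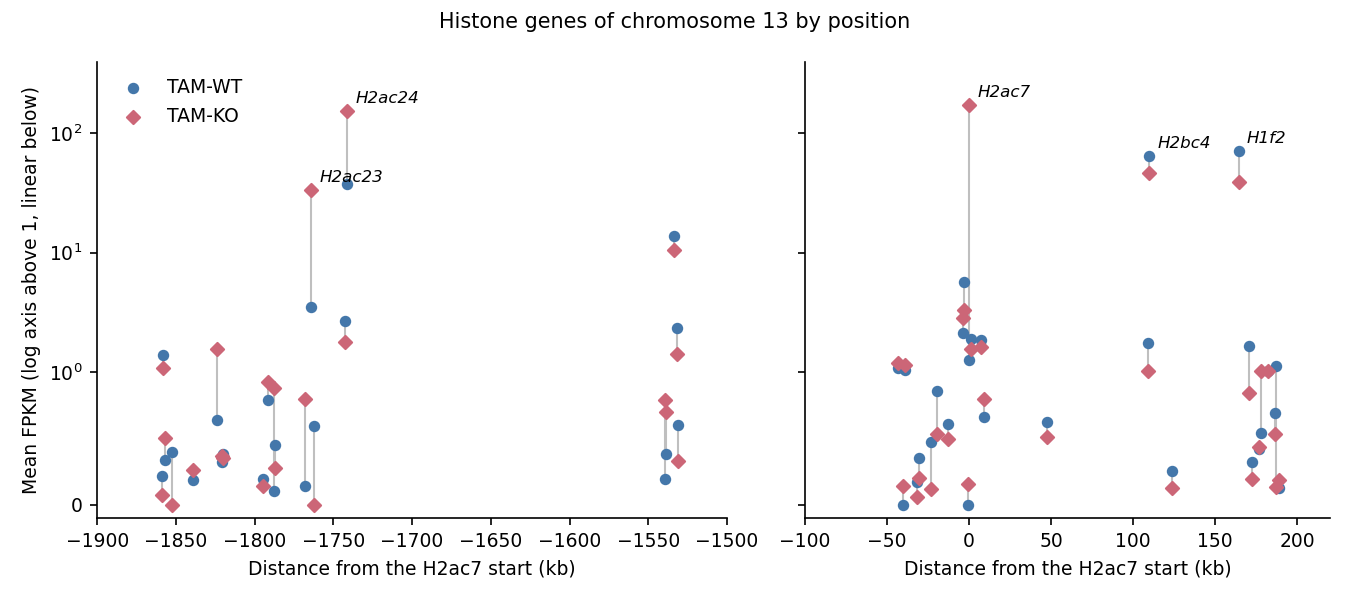
Mean FPKM (log axis above 1, linear below) of the 50 histone genes of chromosome 13 in TAM-WT (blue circles) and TAM-KO (red diamonds) against the distance of their start from that of H2ac7 in kb, in 2 windows that hold all 50. H2ac7 rose at 0 kb while the genes within 100 kb of it stayed under 6 FPKM in each group, and H2ac23 and H2ac24 rose in the distant group of genes.

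Over all 60 members the sum was higher in each of TAM-KO replicates 2 to 4 than in any TAM-WT library. How much of this was left without H2ac7 depended on the unit. The summed level was 100.1, 91.4, 106 and 121 CPM in TAM-WT and 172, 156 and 146 CPM in TAM-KO replicates 2 to 4, or 105 ± 12.4 (SD, n = 4) and 158 ± 13.01 CPM (SD, n = 3). Without H2ac7 it was 104 ± 12.4 CPM (SD, n = 4) and 105 ± 7.59 CPM (SD, n = 3), and the groups overlapped. In FPKM, which gives more weight to short genes, the sum was 268 ± 27.96 in TAM-WT (SD, n = 4) and 572 ± 74.7 in TAM-KO (SD, n = 3). Without H2ac7 it was 236 to 303 FPKM in TAM-WT and 353 to 407 FPKM in TAM-KO, 1.40-fold higher on average and with no overlap. Without H2ac7, H2ac23 and H2ac24, the other 57 members summed to 91.3, 83.8, 98.0 and 111 CPM in TAM-WT and to 61.4, 52.3 and 72.8 CPM in TAM-KO. These sums did not overlap and were lower in TAM-KO, in CPM and also in FPKM (225 ± 24.7 and 159.9 ± 25.7 FPKM), with H1f2 and H2bc4 giving most of the counts. No test was made on these sums, since the genes left out were chosen by their change.

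By family, H1 genes summed to 35.2 ± 5.31 CPM (SD, n = 4) in TAM-WT and 18.5 ± 3.59 CPM (SD, n = 3) in TAM-KO. H2B genes summed to 42.0 ± 3.29 and 28.4 ± 3.47 CPM in the same groups. Both families had no overlap between groups. H3 genes were at 3.74 ± 0.525 and 3.21 ± 1.09 CPM, and H4 genes at 3.6 ± 0.489 and 2.99 ± 0.452 CPM. The groups overlapped for H3 and H4, which together held fewer counts than H1f2 alone in every library.

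**Figure D4:**
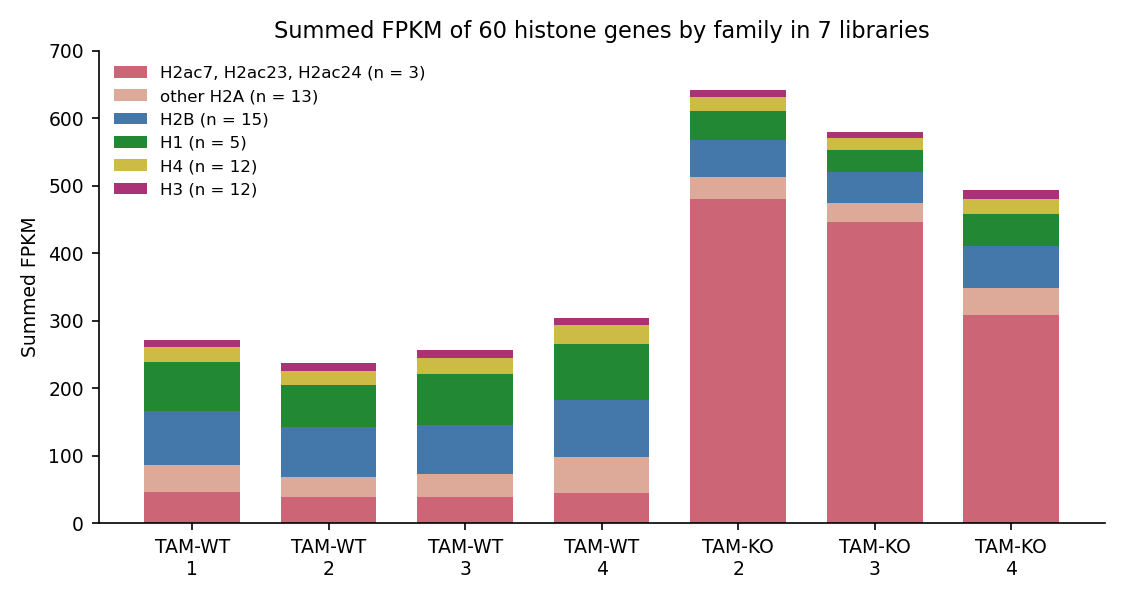
Summed FPKM of the 60 histone genes, stacked by family with H2ac7, H2ac23 and H2ac24 apart from other H2A genes, in 4 TAM-WT libraries and TAM-KO replicates 2 to 4. The 3 H2A genes made up 38.3 to 46.3 FPKM in TAM-WT and 309 to 480 FPKM in TAM-KO.

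The variant histones are made outside S phase as well, mostly from polyadenylated mRNAs. Their 11 genes had a far higher summed level than the 60 members, from 1667 to 1821 FPKM in TAM-WT and from 1528 to 1733 FPKM in TAM-KO. Of 9 tested, 0 rose and 2 fell in edgeR's quasi-likelihood test, with a median log2 fold change of -0.07 beside 0.00 over all genes tested. H3f3b, which encodes the replacement histone H3.3, was at 516 ± 12.2 FPKM in TAM-WT (SD, n = 4) and at 430 ± 38.3 FPKM in TAM-KO (SD, n = 3) (log2 fold change -0.37, adjusted p = 0.0481, edgeR). Cenpa, the histone of centromeres, had a log2 fold change of -0.34 (adjusted p = 0.0323, edgeR). H3f3a, which also encodes H3.3, was at 663 ± 14.3 and 627 ± 42.0 FPKM and did not pass (adjusted p = 0.140, edgeR). These 2 calls depended on the libraries used: without TAM-WT replicate 1, 3 or 4 or without TAM-KO replicate 2, 3 or 4 the count was 0.

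The machinery that makes and processes histone mRNA was measured as 26 genes for transcription, 3' end processing, decay and chaperoning of histones. All 26 were tested, and 0 passed in edgeR, with 6 at an unadjusted p under 0.05 and 2 passing in DESeq2 and in limma. Their median log2 fold change was -0.0012 and the values ran from -0.31 to 0.51. The gene of the stem-loop binding protein, Slbp, had a log2 fold change of 0.06 ± 0.09 (SE, adjusted p = 0.678, edgeR). Npat, the coactivator of histone gene transcription in S phase, was at 0.03 ± 0.07 (SE, adjusted p = 0.793, edgeR). Ssrp1 and Srrt were the most abundant of the list, with log2 fold changes of -0.03 and 0.21.

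Genes of S phase and DNA replication, and of G2 and mitosis, were set beside the members because histone supply follows the cell cycle. Of 26 S phase genes, 0 rose and 1 fell in edgeR's quasi-likelihood test, and their median log2 fold change was 0.00. The gene that fell was Pcna, the sliding clamp of DNA polymerase, at 352 ± 6.85 FPKM in TAM-WT (SD, n = 4) and at 297 ± 28.2 FPKM in TAM-KO (SD, n = 4) (log2 fold change -0.35, adjusted p = 0.0338, edgeR). Without TAM-WT replicate 1, 3 or 4 or TAM-KO replicate 2 or 3, 0 of the 26 passed, and without TAM-WT replicate 2, 2 did. Cdk2 had a log2 fold change of 0.55 ± 0.25 (SE) and did not pass (adjusted p = 0.174, edgeR). Of 14 genes of G2 and mitosis, 0 passed in edgeR, DESeq2 or limma and 0 had an unadjusted p under 0.05 in edgeR, with a median log2 fold change of 0.01. Ube2c and Birc5, the most abundant, were at -0.07 and 0.12.

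Summed T cell, NK cell, neutrophil and endothelial markers were higher in each of TAM-KO replicates 2 to 4 than in any TAM-WT library. Those of melanoma cells, B cells, dendritic cells and fibroblasts overlapped between the groups. Melanoma markers, 7 genes led by Pmel and Dct, summed to 2640, 4382, 2010 and 1958 FPKM in TAM-WT and to 5057, 4742 and 3817 FPKM in TAM-KO replicates 2 to 4. Of these 7, only Sox10 passed in edgeR, and 6 had an unadjusted p under 0.05. In DESeq2 5 of them passed, and in limma on log2(FPKM + 1) 3 did. T cell markers summed to 14.8, 2.12, 2.88 and 2.44 FPKM in TAM-WT and to 39.5, 32.7 and 15.2 FPKM in TAM-KO. Of 6 tested, 0 passed in edgeR, with 5 at an unadjusted p under 0.05, while 2 passed in DESeq2 and 4 in limma. In the same libraries H2ac7 was at 1.97, 1.18, 0.80 and 1.13 FPKM in TAM-WT and at 234, 227 and 136 FPKM in TAM-KO. The part of these markers in the level of H2ac7 and in the lower level of H1f2 and H2bc4 was not tested.

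NK cell markers summed to 0.87 to 18.1 FPKM in TAM-WT and 20.2 to 67.4 FPKM in TAM-KO, where Nkg7 was the 1 of 4 tested that passed in edgeR. Of these 4, 1 passed in DESeq2 and 4 in limma. Neutrophil markers summed to 6.73 to 9.29 and 15.95 to 29.9 FPKM, with 1 of 3 tested passing in edgeR, S100a8. Of these 3, 2 passed in DESeq2 and 1 in limma, and Mpo was at 0 in the 7 libraries. Dendritic cell markers summed to 4.70 to 11.6 and 6.70 to 8.94 FPKM, with Xcr1 passing of 5 tested. B cell markers summed to 4.44 to 7.19 and 5.75 to 10.9 FPKM, fibroblast markers to 2.06 to 6.19 and 2.77 to 4.13 FPKM, and endothelial markers to 3.52 to 6.95 and 7.08 to 11.3 FPKM, with 0 passing in edgeR in each and 1, 0 and 1 at an unadjusted p under 0.05. Of the dendritic cell, B cell, fibroblast and endothelial markers, 1, 0, 0 and 1 passed in DESeq2 and 1, 0, 0 and 0 in limma. Of the 8 macrophage markers, 0 passed in edgeR, 3 had an unadjusted p under 0.05, 3 passed in DESeq2 and 1 in limma. Of the markers tested, Nkg7 had the largest log2 fold change, 3.38. The part of the markers in the level of H2ac7 was not tested. Trac, Trbc1 and Elane, also listed, were not analysed here.

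**Figure D5:**
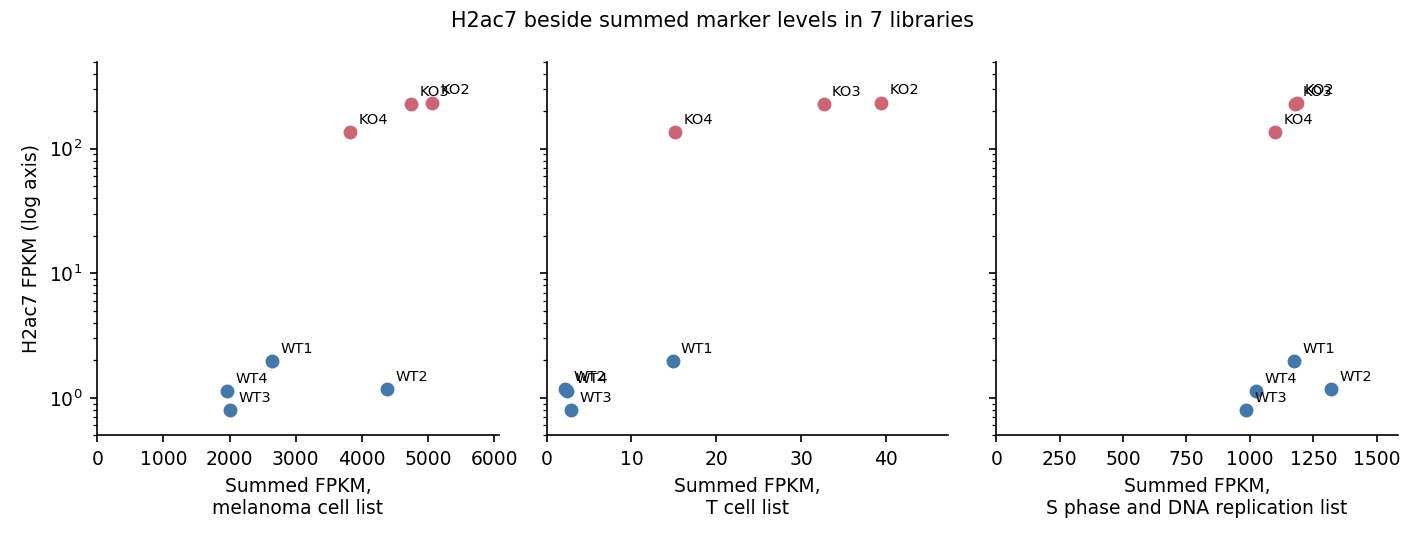
H2ac7 in FPKM (log axis) against the summed FPKM of the melanoma, T cell and S phase lists in TAM-WT (blue) and TAM-KO replicates 2 to 4 (red). H2ac7 lay between 0.80 and 1.97 FPKM in TAM-WT and between 136 and 234 FPKM in these TAM-KO libraries. The part of the markers in its level was not tested.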

How the data were processed

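The labels gave each library its genotype and number. The expected counts were deposited by the authors, who made them with RSEM per gene without normalization, and their deposited FPKM values are relative to transcript length and mapped reads. The deposited TPM values were not used beyond a check of the unit. The submitters' processing notes name HISAT2 2.0.4, Bowtie2 2.2.5, RSEM 1.2.12 and GRCm38.p6. The authors' deposited table of the comparison (log2 ratios, p-values and q-values) was not used.

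The members and gene lists were chosen with earlier results of these data known. Expected counts were rounded, and edgeR 4.0.16 in R 4.3.3 was run on them (TMM, filterByExpr, glmQLFit, glmQLFTest), with Benjamini-Hochberg adjustment over 12412 genes. Of these, 9396 had values in 8 libraries and 3016 in 7, as TAM-KO replicate 1 lacks 5311 genes, 1 of its lines mixes genes, and 629 misplaced values in it were set aside. CPM were scaled by TMM. Libraries held up to 17280267 reads on genes. The edgeR standard errors were derived as the absolute log2 fold change divided by the square root of the test's F statistic. They hold the spread between libraries.

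The text names H2ac7, each member that passed, the 2 highest of each family by FPKM, the members within 0.1 Mb of H2ac7, and the 2 of lowest p that did not pass. Deposited starts are rounded, so GRCm38.p6 starts were used. The rounded starts would add 6 members to that window. From each context list, the members that passed (at most 4) and the 2 highest by FPKM are named, and other names were picked with their values known.

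Alternatives were limma 3.58.1 on log2(FPKM + 1) or with 0.1 added, DESeq2 1.42.0, its size factors within edgeR, no filter, a mean of at least 10 counts, the replicate number as a block, each library left out, an adjusted p of at most 0.01, and a fold of at least 2 at 0.05. The test was tested on simulated data. Promoters came from RefSeq (GRCm38.p6), where 55 of 60 members matched, and transcripts from GENCODE M21, where 60 matched.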

Additional observations from a re-analysis of the deposited data

Results flagged for a closer look

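Among 23 groups of 4 values of the 12 histone genes tested, 1 held a library far from the others, where chance gives about 1.1. H4c9 was at 19.3 FPKM in TAM-WT replicate 4, while the nearest TAM-WT library was at 12.4 FPKM, a gap of 0.854 of the range of the group. Without this library the log2 fold change of H4c9 was -0.25 and, as with it, did not pass in edgeR.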

How the results depend on the processing

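H2ac7, H2ac23, H2ac24 and H1f2 kept their direction and passed in all 15 alternatives, that is, 7 other methods, filters or the block and 8 fits without 1 library. H2ac7 ran from 6.18 to 6.98 on the log2 scale over the 7 and from 6.77 to 7.19 without 1 library. H2bc4 passed in 11 of 15. Over the 11 members other than H2ac7, 161 of 165 alternatives kept direction and side of the threshold, 4, all of H2bc4, no longer passed, and 0 turned the direction. The number that rose was 3, and 2 at an adjusted p of at most 0.01, where H2ac23 no longer passed. The number that fell was 2, 1 to 2 without 1 library, and 0 at a fold of at least 2 or at an adjusted p of at most 0.01. All genes passing numbered 1218, and 2253 in DESeq2, 314 with a fold of at least 2, 36 at an adjusted p of at most 0.01, and 77 to 2755 without 1 library (151 and 416 without TAM-WT replicates 3 and 4, 682 without TAM-KO replicate 1, and 77 without TAM-KO replicate 2 or 3). The summed level of the members differed by 0.60 on the log2 scale in CPM, 0.015 in CPM without H2ac7, 1.10 in FPKM and 0.48 in FPKM without H2ac7, the last added after seeing the data. The causes of these differences were not tested.

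Of the variant histones 2 passed, with 1 under DESeq2 size factors or no filter, 4 in DESeq2, 0 in limma and with the replicate block, and 0 to 2 without 1 library. Of the histone mRNA processing list 0 passed, with 2 in DESeq2 and limma and 0 to 1 without 1 library. Of the S phase list 1 passed, with 0 in limma and with the replicate block and 0 to 2 without 1 library. These alternatives for the lists were chosen after seeing the data.

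Libraries of the same number deviated with correlations of -0.32, 0.02, -0.24 and 0.26, and those of different numbers with correlations from -0.30 to 0.37. These values come from few libraries in each group, so they cannot show whether the numbers pair the mice. With the number as a block, 3 members rose and 2 fell.

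Depth limits the 48 members that were not tested, and near-identical copies limit how the H2A, H2B and H3 counts divide among genes.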
